A study of Mus musculus with 10 samples.

Results

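The genes described here had higher RNA levels than in pro-B cells with intact Pax5 both when the Pax5-R31Q protein was the only Pax5 left and when Pax5 was deleted. They were chosen from the RNA-seq values themselves. A gene was a member when its mean log2(TPM + 1) exceeded that of Pax5(+/+) cells by at least 1, a doubling, in both Pax5(R31Q/-) and Pax5(fl/fl) Vav-Cre cells, and when its mean was at least 5 TPM in either genotype. TPM measures the share of a gene in the reads of a library per unit of gene length, and sums to the same total in each library. Immunoglobulin gene segments were left out. The rule was met by 94 of 25579 genes, so both differences from Pax5(+/+) are descriptions of how the genes were chosen and were not tested.

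The study asked what an amino acid change in Pax5 does to B cell development and to gene expression in mice. RNA-seq covered bone marrow cells of C57BL/6 mice with 4 Pax5 genotypes and 2 libraries each. Pax5(+/+) pro-B cells had both alleles intact, Pax5(+/-) pro-B cells had 1 intact and 1 null allele, and Pax5(R31Q/-) pro-B cells had the R31Q allele beside a null allele. Pax5(fl/fl) Vav-Cre cells, labelled progenitor cells, had lost both alleles through Cre, which the Vav promoter drives throughout the blood system. The labels do not say whether the libraries came from separate mice, so the p-values measure the spread between these samples, which may be technical. The gate used to sort the cells without Pax5 was not given in the sources used here. Pax5 binding was mapped by ChIP-seq in cultured pro-B cells, with 1 library from Rag2(-/-) and 1 from Pax5(R31Q/-) cells. The Rag2(-/-) cells have intact Pax5 and cannot rearrange their immunoglobulin genes, so the 2 ChIP-seq libraries differed in Rag2 as well as in Pax5, which cannot be told apart. The antibody recognised the paired domain, which holds the R31Q change, and whether it binds both proteins equally was not tested.

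Pax5 is the transcription factor that commits lymphoid progenitors to the B cell lineage. It binds DNA through its paired domain, switches on B cell genes such as Cd79a, and holds down genes that belong to progenitors, T cells and myeloid cells. In its absence, pro-B cells keep the potential to form other blood cells. The repressed genes encode proteins with many roles, among them cytokine receptors, adhesion and signalling molecules, and enzymes.

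The recovered depth was 21625407 reads on genes in Pax5(fl/fl) Vav-Cre replicate 1 and between 29916566 and 34488454 in the other libraries. Pax5 itself was at 418 and 444 TPM in Pax5(+/+), 272 and 287 in Pax5(+/-), 306 and 293 in Pax5(R31Q/-) and 1242 and 1409 in Pax5(fl/fl) Vav-Cre cells. A value for the whole gene cannot tell if the deleted exon was covered, so it does not check the last label. The 14 pro-B markers summed to between 16495 and 20973 TPM in the 3 genotypes with a Pax5 protein and to 9041 and 9835 TPM without Pax5. There 9 of the 14 were lower than in Pax5(+/+) cells by limma and 1 was higher, against 2647 and 2182 of all 13436 genes tested. In Pax5(R31Q/-) cells, 1 of the 14 was lower than in Pax5(+/+) cells, against 342 of all genes tested. Of the other lineages, 7 T cell markers summed to at most 7.45 TPM in any library, with 4 of them under 1 TPM throughout. The 6 NK cell markers summed to between 10.9 and 22.1 TPM. The 9 myeloid markers ranged from 399 to 616 TPM in Pax5(+/+), from 665 to 1534 in Pax5(+/-), from 948 to 997 in Pax5(R31Q/-) and from 318 to 2075 in Pax5(fl/fl) Vav-Cre libraries. The 5 plasmacytoid dendritic cell markers ranged from 842 to 862, 656 to 731, 428 to 467 and 602 to 1026 TPM in the same order. Their sum hides opposite moves, since by limma 3 of the 5 were higher and 1 was lower without Pax5 than in Pax5(+/+) cells, and 3 were lower in Pax5(R31Q/-) cells than without Pax5. Siglech, a receptor of these dendritic cells, had 11.7 and 3.37 TPM in Pax5(+/+), 1.72 and 2.64 in Pax5(+/-), 0.694 and 1.33 in Pax5(R31Q/-) and 54.4 and 158 in Pax5(fl/fl) Vav-Cre cells. Ccr9 reached 4.45 and 15.4 TPM and Bst2 325 and 499 TPM without Pax5, whereas in the other genotypes they stayed at or below 2.08 and 127 TPM. Spib, which B cells also express, had 635 and 641 TPM in Pax5(+/+) and 159 and 266 TPM without Pax5. Only 2 of 8 erythroid and platelet markers were at 0 in all libraries, and the sum of these markers stayed between 9.15 and 31.4 TPM. The part of these cells in the results below was not tested. In bulk RNA a change in the share of cells that express a gene cannot be told apart from a change in RNA per cell.

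Together the 94 genes took 1441 and 1399.8 TPM in the Pax5(+/+) libraries, 2174 and 2469 TPM in the Pax5(+/-) libraries, 4330 and 4151 TPM in the Pax5(R31Q/-) libraries, and 8122 and 9501 TPM in the Pax5(fl/fl) Vav-Cre libraries. The median member had 4.31 TPM in Pax5(+/+), 6.47 in Pax5(+/-), 16.5 in Pax5(R31Q/-) and 34.1 in Pax5(fl/fl) Vav-Cre cells. In Pax5(+/+) cells, 16 members were under 1 TPM, 48 had from 1 to under 10 TPM, and 30 had 10 TPM or more. The median difference from Pax5(+/+) on the log2(TPM + 1) scale was 1.30 in Pax5(R31Q/-), between 1.001 and 3.09, and 2.07 in Pax5(fl/fl) Vav-Cre cells, between 1.11 and 7.09. This scale understates the change of genes with low TPM. Of the 163 genes that were at least 1 higher in Pax5(R31Q/-) cells and passed the TPM minimum, 57.7% were members, compared with 12.2% of the 769 such genes in Pax5(fl/fl) Vav-Cre cells. By limma, 1.62% of all 13436 genes tested were higher in Pax5(R31Q/-) and 16.2% in Pax5(fl/fl) Vav-Cre than in Pax5(+/+) cells. Of the members, 76 and 91 were among them, from which nothing is read because the rule used these differences.

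**Figure D1:**
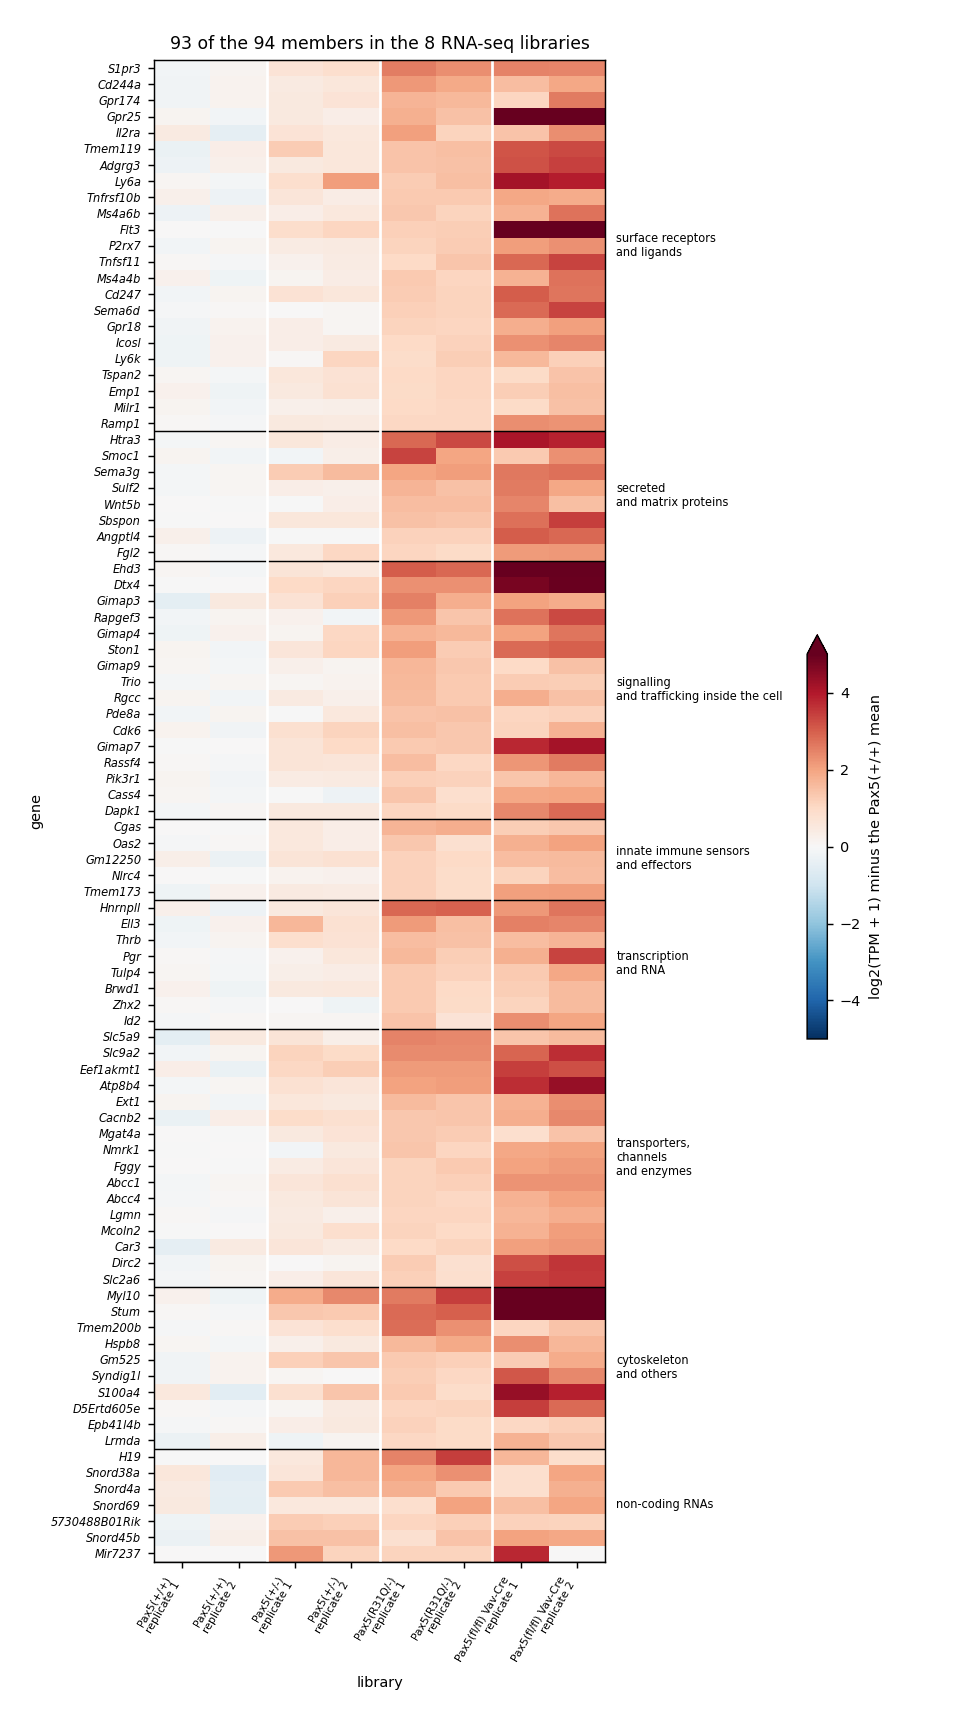
Difference of log2(TPM + 1) from the Pax5(+/+) mean for 93 of the 94 members (rows, by role) in the 8 RNA-seq libraries (columns). Red is higher and blue lower, and the color stops at 5 although values reach 7.09. The color deepens from Pax5(+/-) through Pax5(R31Q/-) to Pax5(fl/fl) Vav-Cre for 70 of the 93 genes shown by their means, and a few rows, such as H19 and Tmem200b, are darkest in Pax5(R31Q/-).

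At the edge of the rule, the smaller of both differences was 1.001 for Lrmda, 1.003 for Fgl2 and 1.010 for Slc2a6, which were members. It was 0.998 for Colq, 0.992 for Ppm1h and 0.991 for Mir343, which were not. Members lay on 20 chromosomes. Close neighbors, with at most 500 kb between them, were few. Gimap9, Gimap4, Gimap7 and Gimap3 lay in a row on chromosome 6 with gaps of 5.46, 26.6 and 39.8 kb. Flt3 lay 18.1 kb from D5Ertd605e on chromosome 5, and Ms4a4b lay 55.0 kb from Ms4a6b on chromosome 19. Wider gaps separated Ly6k from Ly6a (195 kb, chromosome 15) and Snord69 from Sema3g (204 kb, chromosome 14). The counting was not stated to use strand, and 50 of the 94 members overlap another annotated gene, so that reads of both genes may mix. This concerns most the small RNAs Snord38a, Snord4a, Snord45b and Snord69, which lie inside longer genes, and 5730488B01Rik, which overlaps Pax5 on the other strand.

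Pax5 peaks of cells with intact Pax5 lay at the transcription start sites (TSSs) of a smaller share of the members than of all tested genes. A peak of the Rag2(-/-) library lay within 1 kb of a TSS for 35 of the 94 members (37.2%), compared with 68.2% of the 13101 tested genes with an annotated TSS and 45.6% of 667 genes that were at least 1 higher only in Pax5(fl/fl) Vav-Cre cells. A Pax5(R31Q/-) peak lay there for 51 members (54.3%), compared with 73.2% of all tested genes. Of the 35 members with a Rag2(-/-) peak, 32 (91.4%) had at least 1 such peak that a Pax5(R31Q/-) peak overlapped, compared with 96.0% of all tested genes. The other 3, in which no Rag2(-/-) peak at the TSS was met by a Pax5(R31Q/-) peak, were Myl10, Ehd3 and Gimap3. How many members fell in this class depended on the definition of a shared peak. It was 11 of 35 (31.4%, against 15.8% of all tested genes) when an overlap of at least 50% of both peaks was required. With a window of 2.5 kb it was 2 of 42 (4.76%, against 4.79%), and among peaks of 400 bp or more 1 of 22 (4.55%, against 1.42%). These counts come from 1 library per genotype and were not tested, and the deposited peaks hold no height.

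Without Pax5, Myl10 and Ehd3 differed more from Pax5(+/+) than the median member, with differences on the log2(TPM + 1) scale of 5.33 and 5.51, and Gimap3 less, with 1.94. Myl10, which encodes a myosin regulatory light chain and lies on chromosome 5 from 136688892 to 136701857, had 40.3 and 30.2 TPM in Pax5(+/+), 129 and 190.4 in Pax5(+/-), 217 and 389 in Pax5(R31Q/-) and 1334 and 1552 in Pax5(fl/fl) Vav-Cre cells. Ehd3, an ATPase of endocytic recycling on chromosome 17 from 73804841 to 73832093, had 3.87 and 3.26 TPM in Pax5(+/+), 6.06 and 5.53 in Pax5(+/-), 36.5 and 32.6 in Pax5(R31Q/-) and 189.6 and 226 in Pax5(fl/fl) Vav-Cre cells. Gimap3, a GTPase of the immunity-associated family on chromosome 6 from 48764464 to 48770851, had 9.98 and 20.7 TPM in Pax5(+/+), 24.2 and 34.2 in Pax5(+/-), 86.4 and 53.9 in Pax5(R31Q/-) and 61.5 and 55.4 in Pax5(fl/fl) Vav-Cre cells. The genotypes did not overlap for Ehd3 and Myl10 and stepped up in the order given, whereas the Gimap3 libraries of Pax5(R31Q/-) and Pax5(fl/fl) Vav-Cre cells had similar levels. Ehd3 also had a Pax5(R31Q/-) peak at its TSS that met no Rag2(-/-) peak, centered 92 bases downstream of the start and distinct from the unmet peak centered 751 bases upstream. Further peaks near Myl10 and Ehd3 were present in both libraries.

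The sequences under these unmet peaks, and as an example under a peak shared by both libraries near Id2, are shown because they are the DNA at which the 2 peak lists differed or matched. They were read from the GRCm38 genome in the central part of each peak, trimmed to bases outside annotated exons, and are printed on the strand of the gene. Capitals mark the words GCGTGAC and GCANCCA, which belong to the DNA motif bound by the paired domain, searched on both strands. The Id2 peak was chosen because it holds GCGTGAC, so its match was fixed in advance and cannot be set against the unmet peaks. Myl10 is shown at chr5:136692984-136693145 (plus strand), Gimap3 at chr6:48770852-48771074 (minus strand), Ehd3 at chr17:73803941-73804240 (plus strand), and Id2 at chr12:25098662-25098961 (minus strand), centered at position -2719 from the Id2 start.
Myl10, unmet peak: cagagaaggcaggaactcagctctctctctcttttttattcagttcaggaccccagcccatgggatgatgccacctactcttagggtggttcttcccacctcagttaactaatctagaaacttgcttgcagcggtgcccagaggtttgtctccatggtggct
Gimap3, unmet peak: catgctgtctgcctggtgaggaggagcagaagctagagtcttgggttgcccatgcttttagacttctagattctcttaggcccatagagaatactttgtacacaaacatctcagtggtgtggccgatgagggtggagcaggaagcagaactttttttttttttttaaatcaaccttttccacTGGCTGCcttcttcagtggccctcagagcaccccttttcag
Ehd3, unmet peak: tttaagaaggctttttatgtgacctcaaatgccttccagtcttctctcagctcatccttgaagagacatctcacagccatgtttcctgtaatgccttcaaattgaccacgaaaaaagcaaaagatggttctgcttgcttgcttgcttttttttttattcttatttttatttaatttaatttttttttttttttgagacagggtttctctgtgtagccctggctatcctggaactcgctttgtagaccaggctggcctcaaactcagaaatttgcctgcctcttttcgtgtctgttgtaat
Id2, shared peak: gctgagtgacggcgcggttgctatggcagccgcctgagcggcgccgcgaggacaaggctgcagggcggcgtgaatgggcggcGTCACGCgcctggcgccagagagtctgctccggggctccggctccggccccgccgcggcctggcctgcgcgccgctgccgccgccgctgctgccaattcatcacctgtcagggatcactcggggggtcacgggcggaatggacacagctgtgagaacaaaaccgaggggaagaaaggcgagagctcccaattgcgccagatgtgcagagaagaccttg
The Myl10 and Ehd3 stretches held neither word, the Gimap3 stretch held 1 GCANCCA, and the Id2 stretch held 1 GCGTGAC, both on the reverse strand of the printed sequence. The whole unmet Myl10 peak of 558 bases, of which 162 are printed, did hold 1 GCANCCA.

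Over all Rag2(-/-) peaks in or within 10 kb of a member, 215 different peaks near 76 members, GCGTGAC was found in the central 300 bases of 9 of 135 peaks that a Pax5(R31Q/-) peak met (6.67%) and in 1 of 80 that none met (1.25%). For all tested genes the shares were 6.87% of 12363 and 3.42% of 5583 peaks. GCANCCA was found in 25.9% of the met and 25% of the unmet peaks of members, against 23.6% and 20.1% for all tested genes. The median width was 430 bases for the met and 303.5 bases for the unmet peaks of members, and a wider peak is more easily overlapped. RefSeq promoters, from 250 bases before to 50 after a start, were at hand for 66 members. Of these, 3 held GCGTGAC (4.55%, against 4.59% of 10161 genes), namely those of Stum, Wnt5b and Thrb. The other word, GCANCCA, was held by 22 (33.3%, against 24.4%). A match of such a word is a description of the sequence and not evidence of a binding site.

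A further 18 members (19.1%) had a Pax5(R31Q/-) peak at the TSS and no Rag2(-/-) peak there, compared with 7.45% of all tested genes. The share was 9.90% of the genes higher only in Pax5(fl/fl) Vav-Cre cells and 3.55% of 169 genes that were at least 1 lower in both genotypes. Among peaks of 400 bp or more the shares were closer, with 24.5% of members, 17.5% of the genes higher only in Pax5(fl/fl) Vav-Cre cells and 16.3% of all tested genes. Among the 18 were S1pr3, Cd244a, Gpr18, Hnrnpll, Smoc1 and Icosl. Neither list had a TSS peak for 41 members (43.6%, against 24.3% of all tested genes), a share close to the 44.5% of genes higher only in Pax5(fl/fl) Vav-Cre cells. When the whole gene and 10 kb on either side were searched, 76 members (80.9%) had a Rag2(-/-) peak, against 86.4% of all tested genes. Of these, 136 of 216 such pairs of a peak and a member (63.0%) were met by a Pax5(R31Q/-) peak, against 73.9%. Each Rag2(-/-) peak was met for 31 of the 76 members, some were met for 33 and none for 12 (15.8%, against 13.5% of the genes higher only in Pax5(fl/fl) Vav-Cre cells and 8.01% of all tested genes that had such a peak).

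**Figure D2:**
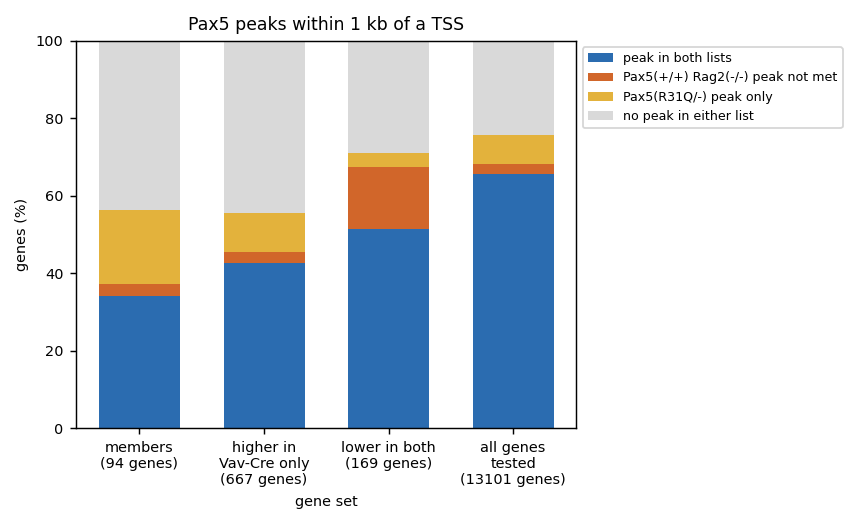
Stacked shares of genes (%) by Pax5 peaks within 1 kb of a TSS, present in both ChIP-seq lists, in the Rag2(-/-) list without an overlapping Pax5(R31Q/-) peak, in the Pax5(R31Q/-) list alone or in neither, for the 94 members, genes higher only in Pax5(fl/fl) Vav-Cre cells, genes lower in both genotypes and all tested genes. Members had a Rag2(-/-) peak in 37.2% and a Pax5(R31Q/-) peak in 54.3%, and the share with a Pax5(R31Q/-) peak alone was 19.1% for members and 7.45% for all genes.

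To see how far the release in Pax5(R31Q/-) cells reached the level without Pax5, the 2 genotypes were compared directly by limma. The rule used the libraries of both genotypes, so this comparison is not independent of it, and the background is over genes that were not selected in this way. For members with a mean under 5 TPM in 1 of the 2 genotypes the rule also fixed the sign, since the other had to reach 5 TPM. Without Pax5 these were H19, Snord38a and Tmem200b. In Pax5(R31Q/-) cells they were Cd247, D5Ertd605e, Dapk1, Fgl2, Gpr25, Icosl, Lrmda, Mir7237, Ms4a4b, Pgr, Sbspon, Sema6d, Tnfrsf10b and Wnt5b. Of the 94 members, 48 were lower in Pax5(R31Q/-) than in Pax5(fl/fl) Vav-Cre cells (background 14.7% of genes tested) and 3 were higher (background 19.9%). Of the members with a fixed sign, H19 and Tmem200b were among the 3. Cd247, D5Ertd605e, Dapk1, Fgl2, Gpr25, Icosl, Ms4a4b, Sbspon and Sema6d were among the 48. For these genes the direction was not tested. The median difference was -0.77 over members and 0.13 over all genes tested. Both Pax5(R31Q/-) libraries lay below both Pax5(fl/fl) Vav-Cre libraries for 61 members (background 29.4%) and above them for 8 (background 43%). On the log2 scale the gain over Pax5(+/+) in Pax5(R31Q/-) cells was a median of 64.1% of that in Pax5(fl/fl) Vav-Cre cells, with quartiles of 49.8% and 85.7%. By this measure, 14 members gained more in Pax5(R31Q/-) cells. Without Pax5(R31Q/-) replicate 2, the count of lower members was 32. The remaining 43 members did not pass the test, which does not show that their levels were equal.

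**Figure D3:**
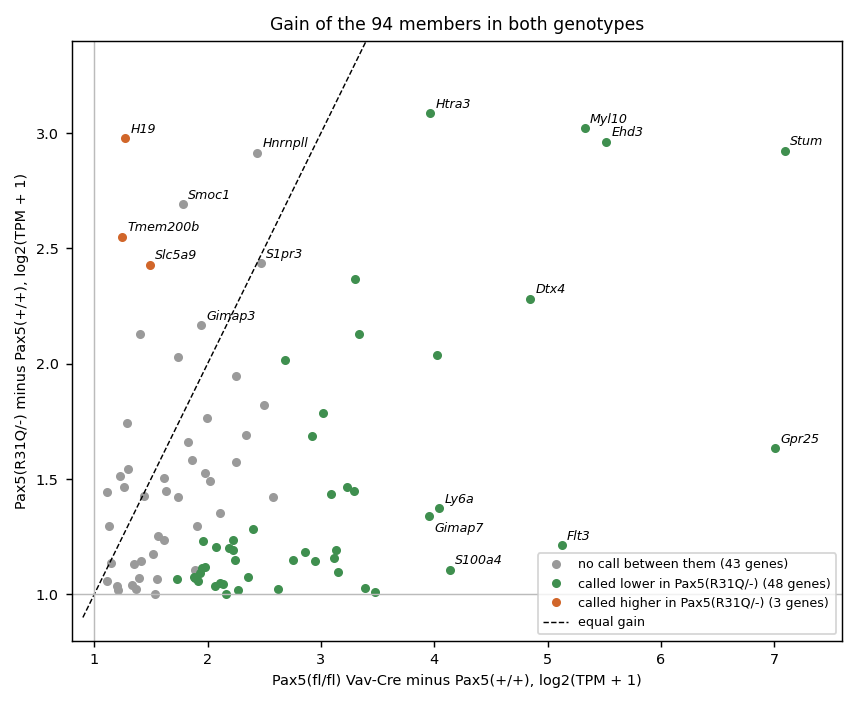
Difference from the Pax5(+/+) mean on the log2(TPM + 1) scale in Pax5(fl/fl) Vav-Cre cells (x axis) and in Pax5(R31Q/-) cells (y axis), 1 point per member, with called members colored by the direction of the difference between both genotypes. The 80 points to the right of the dashed line of equal gain gained more without Pax5, with Gpr25, Stum and Flt3 farthest from it, and 14 points lie to its left.

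Pax5(R31Q/-) was also compared with Pax5(+/-) cells, each with 1 allele that can make a Pax5 protein. The rule picked genes for high values in the Pax5(R31Q/-) libraries, so this comparison is not independent of it, and the shares of members that were higher are biased upward against genes that were not selected. By limma, 16 members were higher in Pax5(R31Q/-) cells (background 0.268%) and 0 were lower (background 0.35%). At an unadjusted p under 0.05, 72 were higher and 0 lower, against 3.55% and 5.24% of all genes tested, and limma-voom on recovered reads called 35 higher (background 0.591%). Among the 16 were Htra3, Ehd3, Hnrnpll, Slc5a9, Tmem200b, S1pr3, Stum, Cd244a, Trio, Gimap9, Cgas, Cass4, Dtx4, Gpr25 and Lgmn. Each of these calls, also where given below, did not pass in between 3 (Ehd3) and 8 (Cass4 and Lgmn) of 13 alternative settings. Both Pax5(R31Q/-) libraries lay above both Pax5(+/-) libraries for 84 members (background 29.7%), with a median difference of 0.87 against 0.01 over all genes. Few of the calls held with 3 libraries, since leaving out either Pax5(+/-) or either Pax5(R31Q/-) library left 0 or 1 of them.

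The loss of 1 allele alone was examined by comparing Pax5(+/-) with Pax5(+/+) cells, the latter also used by the rule. A gene with a low Pax5(+/+) value is more likely to meet the rule, so the shares of members above Pax5(+/+) are biased upward against genes that were not selected in this way. By limma, 0 members were higher (background 0%) and 0 were lower (background 0.0223%). At an unadjusted p under 0.05, 54 members were higher, against 391 of all genes tested (2.91%). On recovered reads, limma-voom called 5 (background 0.0524%), namely 5730488B01Rik, Dtx4, Flt3, Sema3g and Stum. The median difference was 0.53 over members, between -0.13 and 2.14, against 0.02 over all genes. In all, 90 members had a higher mean in Pax5(+/-) cells. Both Pax5(+/-) libraries lay above both Pax5(+/+) libraries for 75 members (background 21.1%). By their means, 85 members lay between Pax5(+/+) and Pax5(R31Q/-), 4 lay below Pax5(+/+) and 5 above Pax5(R31Q/-), whereas 32.9% of all genes lay between. The level stepped up from Pax5(+/+) to Pax5(+/-) to Pax5(R31Q/-) to Pax5(fl/fl) Vav-Cre for 71 members (75.5%) and for 9.77% of all genes, although the rule fixes part of this order. The Pax5(+/-) gain was a median of 37.6% of the Pax5(R31Q/-) gain on the log2 scale.

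**Figure D4:**
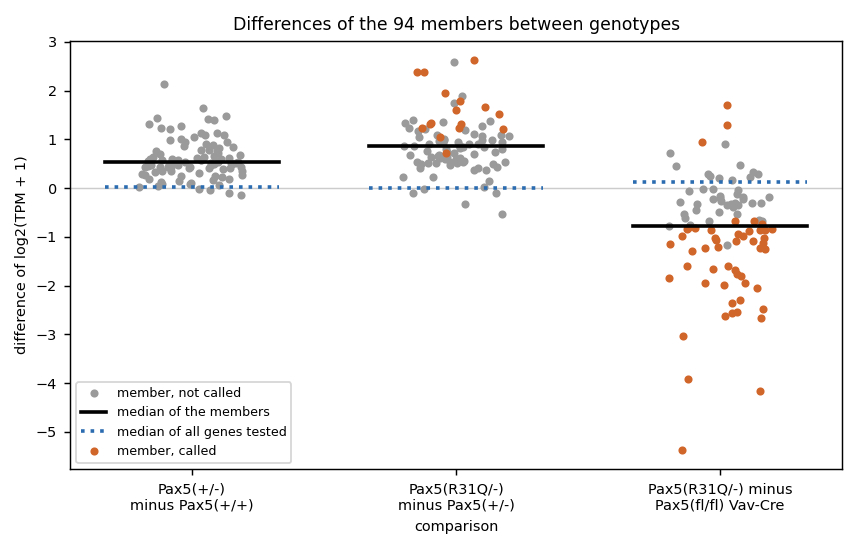
Differences on the log2(TPM + 1) scale for the 94 members (1 point each, called members in orange) in the 3 tested comparisons, with solid lines for the median of members and dotted lines for that of all genes tested. Pax5(+/-) minus Pax5(+/+) has a median of 0.53 with 0 members called, Pax5(R31Q/-) minus Pax5(+/-) a median of 0.87 with 16 called, and Pax5(R31Q/-) minus Pax5(fl/fl) Vav-Cre a median of -0.77 with 51 called.

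The largest group of members, 24 genes, encoded surface receptors and ligands. Of these, 14 were lower in Pax5(R31Q/-) than in Pax5(fl/fl) Vav-Cre cells, 0 were higher, and 4 were higher than in Pax5(+/-) cells. Flt3, the receptor tyrosine kinase of early lymphoid and myeloid progenitors on chromosome 5 from 147330741 to 147400489, had 9.79 and 9.54 TPM in Pax5(+/+), 18.8 and 21.6 in Pax5(+/-), 23.6 and 23.9 in Pax5(R31Q/-) and 385 and 356 in Pax5(fl/fl) Vav-Cre cells. Its difference between Pax5(R31Q/-) and Pax5(fl/fl) Vav-Cre cells was -3.91 ± 0.12 (SE, n = 2 a genotype, adjusted p = 4.93e-06). Between Pax5(R31Q/-) and Pax5(+/-) cells it was 0.22 ± 0.12 (SE, n = 2 a genotype, adjusted p = 0.719). Flt3 with the R31Q protein lay just above both Pax5(+/-) libraries, and far below both libraries without Pax5. Ly6a, which encodes the stem cell antigen Sca-1, had 11.6 and 9.97 TPM in Pax5(+/+), 20.3 and 49.3 in Pax5(+/-), 27.2 and 32.0 in Pax5(R31Q/-) and 209.8 and 177 in Pax5(fl/fl) Vav-Cre cells. The 2 Pax5(+/-) libraries of Ly6a differed widely and enclosed the Pax5(R31Q/-) values. Its difference to Pax5(fl/fl) Vav-Cre cells was -2.67 ± 0.35 (SE, n = 2 a genotype, adjusted p = 0.00132).

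Among the receptors that couple to G proteins, Gpr25, an orphan receptor on chromosome 1 from 136258914 to 136260926, had 0.807 and 0.534 TPM in Pax5(+/+), 1.35 and 1.09 in Pax5(+/-), 4.76 and 3.63 in Pax5(R31Q/-) and 195 and 233 in Pax5(fl/fl) Vav-Cre cells. Its gap between Pax5(R31Q/-) and Pax5(fl/fl) Vav-Cre cells was the largest of all members, -5.37 ± 0.19 (SE, n = 2 a genotype, adjusted p = 7.53e-06). Gpr25 was under the minimum of 5 TPM in Pax5(R31Q/-) cells, so the rule fixed the direction of this gap and the p-value does not test it. Pax5(R31Q/-) was also above Pax5(+/-) by 1.22 ± 0.19 (SE, n = 2 a genotype, adjusted p = 0.0468). S1pr3, a receptor for the lipid sphingosine 1-phosphate on chromosome 13 from 51408618 to 51422797, behaved differently and had 0.433 and 0.701 TPM in Pax5(+/+), 1.49 and 1.83 in Pax5(+/-), 8.21 and 6.75 in Pax5(R31Q/-) and 7.78 and 7.51 in Pax5(fl/fl) Vav-Cre cells. With the R31Q protein its level was similar to that without Pax5, the difference being -0.03 ± 0.18 (SE, n = 2 a genotype, adjusted p = 0.903). It was above Pax5(+/-) by 1.67 ± 0.18 (SE, n = 2 a genotype, adjusted p = 0.0155). Gpr18 was at 69.8 and 68.1 TPM with the R31Q protein and at 114 and 136 TPM without Pax5. This difference, -0.84 ± 0.16 (SE, n = 2 a genotype, adjusted p = 0.00603), did not pass without Pax5(R31Q/-) replicate 2 (-0.83). Gpr174, a receptor for lysophosphatidylserine, had 9.77 and 9.15 TPM in Pax5(R31Q/-) cells, and the 2 Pax5(fl/fl) Vav-Cre libraries, 6.02 and 18.8 TPM, enclosed these values. Adgrg3, an adhesion receptor of the same superfamily, was at 171 and 173 TPM with the R31Q protein and at 572 and 668 TPM without Pax5, a difference of -1.84 ± 0.16 (SE, n = 2 a genotype, adjusted p = 2.22e-04).

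In the list of 21 tested trafficking receptors, among them the members S1pr3, Gpr18 and Gpr174, 12 were lower in Pax5(R31Q/-) than in Pax5(fl/fl) Vav-Cre cells and 4 higher, and 2 were higher than in Pax5(+/-) cells. Over all genes tested these shares were 14.7%, 19.9% and 0.268%, which are also the background of the lists that follow, and 4 of 21 is near the share over all genes.

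Receptors and signalling molecules of T and NK cells were represented by 4 members of 21 tested genes of that list, Cd247, Cd244a, Il2ra and the transcriptional regulator Id2. Cd247, the zeta chain of the T cell receptor complex on chromosome 1 from 165779952 to 165871153, had 1.34 and 1.77 TPM in Pax5(+/+), 3.18 and 2.74 in Pax5(+/-), 5.07 and 4.50 in Pax5(R31Q/-) and 19.9 and 15.3 in Pax5(fl/fl) Vav-Cre cells. Its difference between Pax5(R31Q/-) and Pax5(fl/fl) Vav-Cre cells was -1.68 ± 0.19 (SE, n = 2 a genotype, adjusted p = 7.28e-04). The rule fixed the direction of this difference, because the Pax5(R31Q/-) mean of 4.78 TPM was under the minimum of 5 TPM. Cd244a, the receptor 2B4 of NK cells, had 4.23 and 5.68 TPM in Pax5(+/+), 7.11 and 7.66 in Pax5(+/-), 25.2 and 21.2 in Pax5(R31Q/-) and 16.0 and 21.8 in Pax5(fl/fl) Vav-Cre cells. The Pax5(R31Q/-) and Pax5(fl/fl) Vav-Cre values of Cd244a overlapped, and Pax5(R31Q/-) was above Pax5(+/-) by 1.53 ± 0.20 (SE, n = 2 a genotype, adjusted p = 0.0285). Il2ra, the alpha chain of the interleukin 2 receptor, had 41.9 and 21.1 TPM with the R31Q protein and 26.4 and 50.4 TPM without Pax5, so that both genotypes overlapped. Of all 21 tested genes, 18 were lower in Pax5(R31Q/-) than in Pax5(fl/fl) Vav-Cre cells and 0 higher, with a median difference of -1.80. The T cell markers named above, of which the list also holds the Cd3 genes and Bcl11b, summed to at most 7.45 TPM in any library.

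The progenitor and myeloid list, with Flt3 and Ly6a as members, had 12 of 21 tested genes lower in Pax5(R31Q/-) than in Pax5(fl/fl) Vav-Cre cells and 1 higher. Against Pax5(+/-) cells, 1 of the 21 was higher in Pax5(R31Q/-) cells. The remaining receptors and ligands included Tnfsf11, the osteoclast factor RANKL, at 4.63 and 6.31 TPM with the R31Q protein and 19.6 and 28.5 TPM without Pax5 (difference -1.94 ± 0.23 (SE, n = 2 a genotype, adjusted p = 8.12e-04)). Icosl, the ligand of the T cell costimulator ICOS, was at 3.08 and 3.61 and 9.03 and 10.1 TPM (difference -1.28 ± 0.20 (SE, n = 2 a genotype, adjusted p = 0.00299)). For Icosl the rule fixed this direction, because it was under the minimum of 5 TPM in Pax5(R31Q/-) cells. Ramp1, which partners the receptor of calcitonin gene-related peptide, had 109 and 109 TPM with the R31Q protein and 268 and 255 TPM without Pax5 (difference -1.25 ± 0.10 (SE, n = 2 a genotype, adjusted p = 1.57e-04)).

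**Figure D5:**
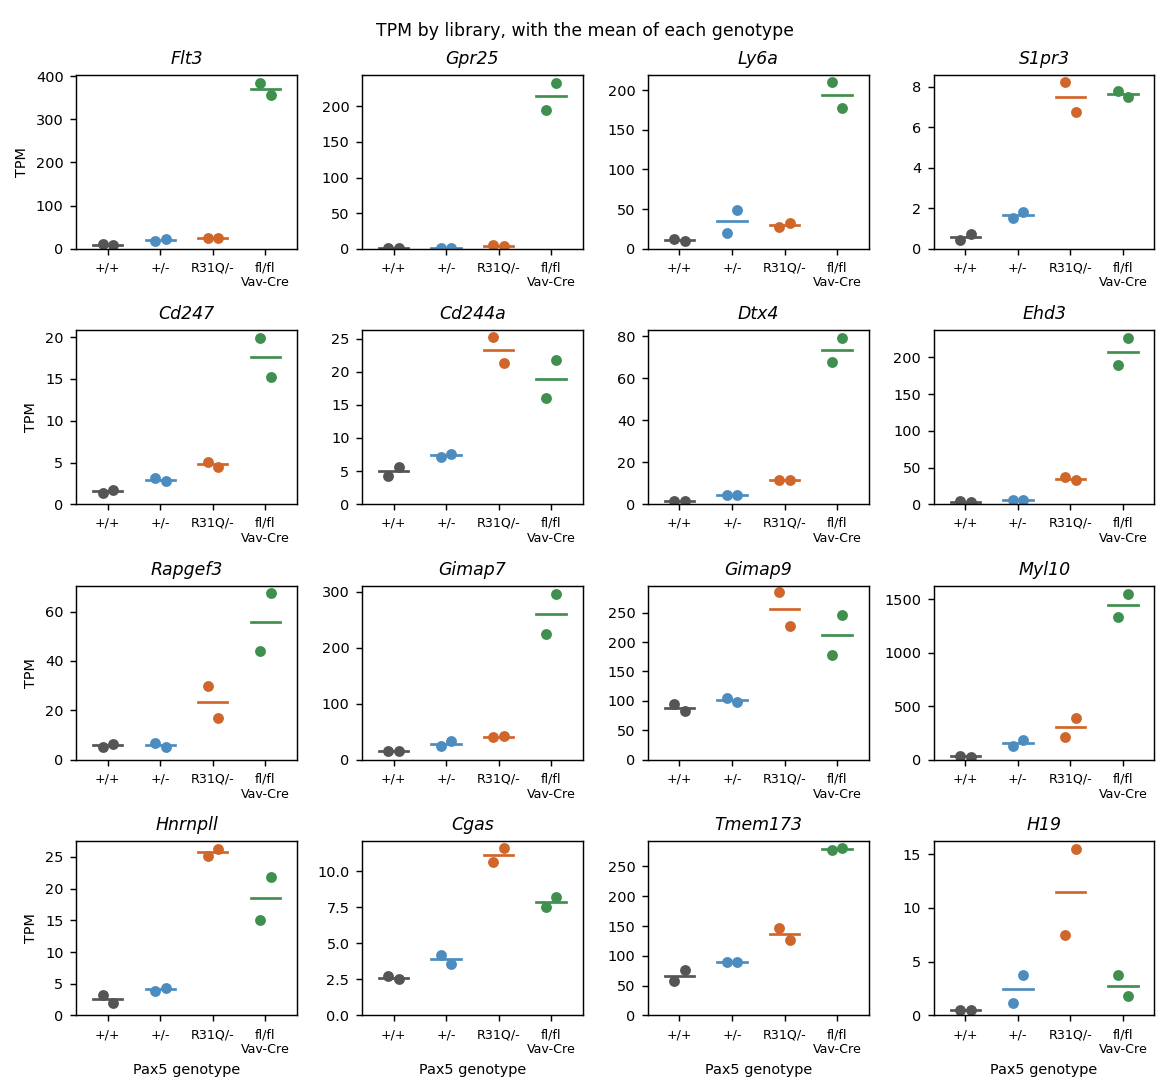
TPM (y axis, from 0) of 16 members by Pax5 genotype (x axis), with a point for each library and a line for the genotype mean (n = 2). Flt3 lies at 23.6 and 23.9 TPM in Pax5(R31Q/-) and at 385 and 356 TPM in Pax5(fl/fl) Vav-Cre libraries, whereas H19 is highest in Pax5(R31Q/-) with 7.47 and 15.4 TPM.

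The 8 secreted and matrix proteins included the member with the largest difference from Pax5(+/+) in Pax5(R31Q/-) cells. Htra3, a secreted serine protease on chromosome 5 from 35652026 to 35679813, had 1.21 and 1.52 TPM in Pax5(+/+), 2.48 and 2.03 in Pax5(+/-), 16.5 and 22.0 in Pax5(R31Q/-) and 38.8 and 32.9 in Pax5(fl/fl) Vav-Cre cells. All 4 genotypes were separate, and Pax5(R31Q/-) was above Pax5(+/-) by 2.63 ± 0.20 (SE, n = 2 a genotype, adjusted p = 0.00437) and differed from Pax5(fl/fl) Vav-Cre by -0.87 ± 0.20 (SE, n = 2 a genotype, adjusted p = 0.0131), the latter lost without Pax5(R31Q/-) replicate 1 (-0.68) or without Pax5(fl/fl) Vav-Cre replicate 1 (-0.76). The difference to Pax5(+/-) did not pass in 4 of 13 alternative settings, in which it was between 2.43 and 2.82. Smoc1, a calcium-binding matrix protein, had 1.93 and 1.47 TPM in Pax5(+/+), 1.47 and 2.34 in Pax5(+/-), 27.4 and 9.66 in Pax5(R31Q/-) and 5.62 and 12.0 in Pax5(fl/fl) Vav-Cre cells. Its Pax5(R31Q/-) replicates stood far apart, and neither tested difference passed (adjusted p = 0.175 against Pax5(fl/fl) Vav-Cre and 0.0789 against Pax5(+/-)). Sema3g, a secreted semaphorin, had 5.89 and 7.08 TPM in Pax5(+/+), 16.9 and 21.5 in Pax5(+/-), 27.9 and 30.4 in Pax5(R31Q/-) and 45.2 and 48.9 in Pax5(fl/fl) Vav-Cre cells. Besides Htra3, 4 of the 8 genes, Sema3g, Angptl4, Fgl2 and Sbspon, were lower in Pax5(R31Q/-) than in Pax5(fl/fl) Vav-Cre cells by between -0.67 and -1.80. For Fgl2 and Sbspon the rule fixed this direction, because their Pax5(R31Q/-) means of 2.57 and 2.27 TPM were under the minimum of 5 TPM.

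Of 16 genes of signalling and trafficking inside the cell, 8 were lower in Pax5(R31Q/-) than in Pax5(fl/fl) Vav-Cre cells and 5, Ehd3, Dtx4, Gimap9, Trio and Cass4, were higher than in Pax5(+/-) cells. A Rag2(-/-) peak lay at the TSS of 12 (against 68.2% of all tested genes) and a Pax5(R31Q/-) peak at that of 11 of the 16 genes (against 73.2%), shares near those of all genes, whereas 4 of the 24 surface receptors and ligands and 1 of the 8 secreted and matrix proteins had a Rag2(-/-) peak there. Dtx4, a ubiquitin ligase of the Deltex family tied to Notch signalling, lies on chromosome 19 from 12466329 to 12502179. It had 1.58 and 1.59 TPM in Pax5(+/+), 4.21 and 4.49 in Pax5(+/-), 11.6 and 11.6 in Pax5(R31Q/-) and 67.9 and 79.0 in Pax5(fl/fl) Vav-Cre cells. Its level stepped up without overlap, above Pax5(+/-) by 1.23 ± 0.15 (SE, n = 2 a genotype, adjusted p = 0.0212) and with a difference to Pax5(fl/fl) Vav-Cre of -2.56 ± 0.15 (SE, n = 2 a genotype, adjusted p = 4.55e-05). Dtx4 was the only member among 24 tested Notch pathway genes, of which 7 were lower than in Pax5(fl/fl) Vav-Cre cells and 4 higher. Against Pax5(+/-) cells, 1 of the 24 was higher and 1 lower. Ehd3, described above, was higher in Pax5(R31Q/-) than in Pax5(+/-) cells by 2.39 ± 0.15 (SE, n = 2 a genotype, adjusted p = 0.00326) and differed from Pax5(fl/fl) Vav-Cre by -2.55 ± 0.15 (SE, n = 2 a genotype, adjusted p = 4.83e-05).

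The GTPases of the Gimap family, lymphocyte proteins tied to survival, contributed 4 members of 8 tested genes. Gimap7, on chromosome 6 from 48718621 to 48724636, had 15.6 and 15.9 TPM in Pax5(+/+), 25.2 and 32.8 in Pax5(+/-), 40.8 and 42.1 in Pax5(R31Q/-) and 225 and 297 in Pax5(fl/fl) Vav-Cre cells. Gimap9, on chromosome 6 from 48676121 to 48679116, had 95.1 and 82.3 TPM in Pax5(+/+), 105 and 98.3 in Pax5(+/-), 285 and 227 in Pax5(R31Q/-) and 177 and 247 in Pax5(fl/fl) Vav-Cre cells. Gimap4 had 63.4 and 85.5 TPM with intact Pax5, 248 and 232 TPM with the R31Q protein and 297 and 474 TPM without Pax5. The neighbors differed in how close the R31Q level came to that without Pax5, since Gimap7 was well below it (-2.61 ± 0.17 (SE, n = 2 a genotype, adjusted p = 7.17e-05)). For Gimap9, Gimap3 and Gimap4 that difference was 0.28, 0.22 and -0.65 and did not pass (adjusted p = 0.257, 0.640 and 0.153). Gimap9 was above Pax5(+/-) by 1.32 ± 0.18 (SE, n = 2 a genotype, adjusted p = 0.0333). In the whole family, 3 of 8 were lower in Pax5(R31Q/-) than in Pax5(fl/fl) Vav-Cre cells and 0 were higher.

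Rapgef3 (Epac1), which activates the GTPase Rap in response to cyclic AMP, had 5.21 and 6.58 TPM in Pax5(+/+), 6.92 and 5.20 in Pax5(+/-), 30.0 and 17.0 in Pax5(R31Q/-) and 44.0 and 67.3 in Pax5(fl/fl) Vav-Cre cells. Its Pax5(R31Q/-) replicates differed, and the difference to Pax5(fl/fl) Vav-Cre cells, -1.23 ± 0.31 (SE, n = 2 a genotype, adjusted p = 0.0192), did not pass without Pax5(R31Q/-) replicate 2 (-0.84) or without Pax5(fl/fl) Vav-Cre replicate 2 (-0.93). It was the only member among 22 tested genes of G protein, cyclic AMP and Rap signalling, of which 6 were lower and 4 higher than in Pax5(fl/fl) Vav-Cre cells. Trio, an exchange factor for small GTPases, was at 13.8 and 14.7 TPM in Pax5(+/-), 42.2 and 33.6 in Pax5(R31Q/-) and 33.1 and 32.0 in Pax5(fl/fl) Vav-Cre cells. It was above Pax5(+/-) by 1.34 ± 0.16 (SE, n = 2 a genotype, adjusted p = 0.0194) and near the level without Pax5 (0.21 ± 0.16 (SE, n = 2 a genotype, adjusted p = 0.322)). Cdk6, a kinase of the G1 phase, and Pik3r1, the regulatory subunit of phosphoinositide 3-kinase, had differences of -0.02 and -0.35 to Pax5(fl/fl) Vav-Cre cells that did not pass (adjusted p = 0.957 and 0.0773).

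The innate group, which senses or answers foreign nucleic acid and infection, held Cgas, Tmem173, Oas2, Nlrc4 and Gm12250, of which 2 were lower in Pax5(R31Q/-) than in Pax5(fl/fl) Vav-Cre cells. Cgas, the cytosolic DNA sensor on chromosome 9 from 78430518 to 78443237, had 2.71 and 2.53 TPM in Pax5(+/+), 4.19 and 3.59 in Pax5(+/-), 10.7 and 11.6 in Pax5(R31Q/-) and 7.55 and 8.18 in Pax5(fl/fl) Vav-Cre cells. Its Pax5(R31Q/-) values lay above those of every other genotype, higher than Pax5(+/-) by 1.31 ± 0.16 (SE, n = 2 a genotype, adjusted p = 0.0212), while the difference to Pax5(fl/fl) Vav-Cre, 0.45 ± 0.16 (SE, n = 2 a genotype, adjusted p = 0.0608), did not pass. Tmem173 (STING), the adaptor that acts after cGAS, had 57.1 and 76.4 TPM in Pax5(+/+), 89.9 and 89.3 in Pax5(+/-), 146 and 127 in Pax5(R31Q/-) and 277 and 281 in Pax5(fl/fl) Vav-Cre cells. It was lower in Pax5(R31Q/-) than in Pax5(fl/fl) Vav-Cre cells (-1.03 ± 0.15 (SE, n = 2 a genotype, adjusted p = 0.00210)). Of 6 tested genes of the cGAS-STING list, 2 were lower in Pax5(R31Q/-) than in Pax5(fl/fl) Vav-Cre cells and 1 was higher. Cgas was the 1 that was higher than in Pax5(+/-) cells.

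Of the 8 regulators of transcription and RNA, 1, Id2, was lower in Pax5(R31Q/-) than in Pax5(fl/fl) Vav-Cre cells and 0 were higher. Id2, which blocks E proteins such as E2A and lies on chromosome 12 from 25093799 to 25096092, had 4.41 and 4.75 TPM in Pax5(+/+), 5.04 and 4.99 in Pax5(+/-), 13.9 and 7.85 in Pax5(R31Q/-) and 26.8 and 20.6 in Pax5(fl/fl) Vav-Cre cells. The difference to Pax5(fl/fl) Vav-Cre cells was -1.09 ± 0.26 (SE, n = 2 a genotype, adjusted p = 0.0154) and was lost without Pax5(R31Q/-) replicate 2 (-0.72) or without Pax5(fl/fl) Vav-Cre replicate 1 (-0.91). Hnrnpll, an RNA-binding protein that regulates splicing of Ptprc (CD45) and lies on chromosome 17 from 80029487 to 80062268, had 3.21 and 1.98 TPM in Pax5(+/+), 3.90 and 4.40 in Pax5(+/-), 25.2 and 26.3 in Pax5(R31Q/-) and 15.1 and 21.8 in Pax5(fl/fl) Vav-Cre cells. Hnrnpll was above Pax5(+/-) by 2.38 ± 0.23 (SE, n = 2 a genotype, adjusted p = 0.0105), and its difference to Pax5(fl/fl) Vav-Cre was 0.48 ± 0.23 (SE, n = 2 a genotype, adjusted p = 0.143).

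Transporters, channels and enzymes, 16 members, had 12 lower in Pax5(R31Q/-) than in Pax5(fl/fl) Vav-Cre cells and 1 higher. Slc2a6, a hexose transporter just inside the threshold of the rule, had 1.85 and 2.30 TPM in Pax5(+/+), 2.86 and 3.66 in Pax5(+/-), 6.02 and 4.44 in Pax5(R31Q/-) and 31.9 and 34.7 in Pax5(fl/fl) Vav-Cre cells. Its difference to Pax5(fl/fl) Vav-Cre was -2.47 ± 0.20 (SE, n = 2 a genotype, adjusted p = 1.48e-04). Slc5a9, a sodium-coupled sugar transporter on chromosome 4 from 111875374 to 111902796, had 1.43 and 3.75 TPM in Pax5(+/+), 4.31 and 3.18 in Pax5(+/-), 17.8 and 16.8 in Pax5(R31Q/-) and 7.91 and 9.22 in Pax5(fl/fl) Vav-Cre cells. It was the member of this group that was higher in Pax5(R31Q/-) than in Pax5(fl/fl) Vav-Cre cells (0.94 ± 0.31 (SE, n = 2 a genotype, adjusted p = 0.0478)). This call was lost without any of the 4 libraries compared and with either other scaling. Slc5a9 was above Pax5(+/-) by 1.96 ± 0.31 (SE, n = 2 a genotype, adjusted p = 0.0461), which did not pass in 7 of 13 alternative settings. Lgmn, the endolysosomal protease legumain, had 78.8 and 72.7 TPM in Pax5(+/+), 102 and 91.6 in Pax5(+/-), 161 and 159 in Pax5(R31Q/-) and 239.8 and 268 in Pax5(fl/fl) Vav-Cre cells. It stepped up through all genotypes, above Pax5(+/-) by 0.72 ± 0.11 (SE, n = 2 a genotype, adjusted p = 0.0469) and with a difference to Pax5(fl/fl) Vav-Cre of -0.66 ± 0.11 (SE, n = 2 a genotype, adjusted p = 0.00401).

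Among the 10 cytoskeletal and other genes, Stum, a membrane protein named after a fly gene of touch sensing, showed the largest difference from Pax5(+/+) without Pax5. On chromosome 1 from 180432373 to 180483519, it had 0.581 and 0.467 TPM in Pax5(+/+), 2.85 and 2.77 in Pax5(+/-), 9.89 and 11.2 in Pax5(R31Q/-) and 187 and 228 in Pax5(fl/fl) Vav-Cre cells. The 4 genotypes of Stum did not overlap, with Pax5(R31Q/-) above Pax5(+/-) by 1.60 ± 0.16 (SE, n = 2 a genotype, adjusted p = 0.0113) and a difference to Pax5(fl/fl) Vav-Cre of -4.17 ± 0.16 (SE, n = 2 a genotype, adjusted p = 1.08e-05). S100a4, a calcium-binding protein linked to cell motility, had 4.75 and 1.78 TPM in Pax5(+/+), 6.05 and 9.31 in Pax5(+/-), 8.92 and 6.48 in Pax5(R31Q/-) and 81.3 and 58.9 in Pax5(fl/fl) Vav-Cre cells. Its Pax5(+/-) and Pax5(R31Q/-) libraries overlapped, and the difference to Pax5(fl/fl) Vav-Cre was -3.03 ± 0.37 (SE, n = 2 a genotype, adjusted p = 9.23e-04). For Myl10 that difference was -2.30 ± 0.30 (SE, n = 2 a genotype, adjusted p = 0.00122). Its difference between Pax5(+/-) and Pax5(+/+) cells, 2.14 ± 0.30 (SE, n = 2 a genotype, adjusted p = 0.0904), was the largest among members although it did not pass the test. Tmem200b, a membrane protein on chromosome 4 from 131919971 to 131923956, had 0.157 and 0.235 TPM in Pax5(+/+), 0.914 and 1.13 in Pax5(+/-), 7.34 and 4.88 in Pax5(R31Q/-) and 1.53 and 2.17 in Pax5(fl/fl) Vav-Cre cells. Tmem200b was higher in Pax5(R31Q/-) than in Pax5(fl/fl) Vav-Cre cells (1.31 ± 0.23 (SE, n = 2 a genotype, adjusted p = 0.00424)), also when any library was left out. Of these 2 genotypes, only Pax5(R31Q/-) reached a mean of 5 TPM, so the rule fixed this direction and the p-value does not test it. Tmem200b was above Pax5(+/-) by 1.79 ± 0.23 (SE, n = 2 a genotype, adjusted p = 0.0227), which did not pass in 6 of 13 alternative settings.

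Of the 7 non-coding RNAs, H19, an imprinted transcript that is read from the maternal allele and hosts Mir675, lies on chromosome 7 from 142575530 to 142578146. It had 0.471 and 0.528 TPM in Pax5(+/+), 1.16 and 3.74 in Pax5(+/-), 7.47 and 15.4 in Pax5(R31Q/-) and 3.75 and 1.76 in Pax5(fl/fl) Vav-Cre cells. H19 was higher in Pax5(R31Q/-) than in Pax5(fl/fl) Vav-Cre cells (1.70 ± 0.46 (SE, n = 2 a genotype, adjusted p = 0.0255)). Of these 2 genotypes, only Pax5(R31Q/-) reached a mean of 5 TPM, so the rule fixed the direction of this call. This call was lost without Pax5(R31Q/-) replicate 2 (1.23) or without Pax5(fl/fl) Vav-Cre replicate 2 (1.31). Outside Pax5(+/+) the libraries of a genotype differed at least 2-fold. Among 6 tested imprinted growth genes, 3 were higher and 2 lower in Pax5(R31Q/-) than in Pax5(fl/fl) Vav-Cre cells, and 0 differed from Pax5(+/-) cells. 5730488B01Rik, which overlaps Pax5, had 11.0 and 14.9 TPM in Pax5(+/+), 32.5 and 30.6 in Pax5(+/-), 28.3 and 30.5 in Pax5(R31Q/-) and 30.2 and 29.0 in Pax5(fl/fl) Vav-Cre cells. All 3 genotypes other than Pax5(+/+) were thus at about the same level, with 28.3 to 32.5 TPM. The 4 small nucleolar RNAs and Mir7237 were low and variable, as Mir7237 with 12.7 and 0 TPM in the Pax5(fl/fl) Vav-Cre libraries.

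The genes outside the 94 with the profile most like that of the median member over the 8 libraries were Spr, the enzyme sepiapterin reductase (Pearson's r = 0.995), Atp8a2 (r = 0.993), 4930452B06Rik (r = 0.992), Drc7 (r = 0.987) and Glipr2 (r = 0.987). They share libraries and scale with the members, and each missed the rule on its difference in Pax5(R31Q/-) cells. Spr had a mean of 21.1 TPM in Pax5(+/+), 25.2 in Pax5(+/-), 34.8 in Pax5(R31Q/-) and 44.8 in Pax5(fl/fl) Vav-Cre cells. Of the members themselves, 69 had a correlation of at least 0.9 with the median profile, to which each contributes, and the lowest was 0.38.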

How the data were processed

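RNA-seq values of 8 libraries and Pax5 ChIP-seq peaks of 2 libraries were taken as deposited. The authors prepared the RNA-seq libraries from poly(A) RNA, aligned the reads with STAR 2.4.2, assigned them to RefSeq genes with featureCounts, and the TPM values made from these counts were deposited. How strand was treated is not given in the sources used here. Per the submitters' processing notes, ChIP-seq reads were handled with Bowtie2 2.3.5.1, SAMtools 1.9, Picard 2.18.27 and MACS on mm10 (GRCm38). The deposited peak files hold a start, an end and a score of 0 throughout. The R31Q library was assigned by its listed genotype, since its description writes Rag2(R31Q/-).

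The tables give 649 genes by an identifier in place of a symbol, which was translated through RefSeq. Without this, 103 genes would meet the rule, since 9 immunoglobulin segments would be kept. The members, role groups and gene lists were chosen with earlier results of these data known. Differences on the log2(TPM + 1) scale were tested two-sided with limma 3.58.1 (R 4.3.3) over the 13436 genes with at least 1 TPM in at least 1 library, with all 4 genotypes in the fit, a trend in eBayes and Benjamini-Hochberg adjustment over all of these genes. A gene was called at an adjusted p under 0.05. An exact permutation test of 2 against 2 libraries cannot go below p = 0.333, so the p-values depend on the pooled spread of limma. Whole reads behind the TPM values could be recovered from the steps between values for all 94 members and were used for depth and for limma-voom, which was added after seeing the data. On simulated data for Pax5(R31Q/-) against Pax5(+/+) with 200 genes changed, limma called 72.5% of genes changed 2-fold with 13 false calls among 12959 genes, 99.0% of those changed 3-fold and 100% of those changed 4-fold. The changed genes had at least 5 TPM in Pax5(+/+) cells and the same assumed spread. The median member had 4.31 TPM there, so these rates do not cover members with less than 5 TPM. Named genes were the 8 members with the largest difference from Pax5(+/+) in each genotype, the 8 called with the largest difference in each direction between Pax5(R31Q/-) and Pax5(fl/fl) Vav-Cre, those with an unmet TSS peak, those in a pathway list, those at the threshold and the 5 most alike genes. Further members named as examples were chosen after their values were seen. One member that these rules would name is not reported here by name, and counts over all members include it. A peak was met when it shared at least 1 base with a peak of the other list. Gene positions come from RefSeq on GRCm38, as do the promoter sequences. Peaks and sequences were handled with numpy 2.4.6, pandas 2.3.3 and scipy 1.17.1 under Python 3.11.15, and plots were drawn with matplotlib 3.10.9. Alternatives covered the pseudocount, the TPM filter, the scaling, the genotypes in the fit, the trend, the peak windows and the omission of each library.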

Additional observations from a re-analysis of the deposited data

How the results depend on the processing

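The rule gave 148 members with a pseudocount of 0.1 and 22 with a threshold of log2(3), and between 80 and 117 under the other settings tried, including 92 to 107 when a library was left out. Whichever library was left out, 54 of the 94 remained members. The count higher in Pax5(+/-) than in Pax5(+/+) cells was 1 with a pseudocount of 0.1, 1 without a filter, 5 without a trend, 2 with median-ratio scaling, 2 with quantile normalization and 5 with limma-voom, and 0 to 0 when a library was left out. Between Pax5(R31Q/-) and Pax5(fl/fl) Vav-Cre cells, the count of higher members was 1 without a filter and 1 to 4 when a library was left out, and the count of lower members was 32 to 46 when a library was left out. Median-ratio scaling moved the median of all genes in this comparison from 0.13 to 0.01, with 55 members lower and 2 higher. The count higher in Pax5(R31Q/-) than in Pax5(+/-) cells was 5 without a filter, 25 with median-ratio scaling, 35 with limma-voom and 0 to 1 when a library was left out. In these fits the remaining library of that genotype was assumed to vary like the others. Among peaks of 400 bp or more, 22 members had a Rag2(-/-) peak at the TSS, 21 had one that was met and 1 had none met, compared with 11 with none met when an overlap of at least 50% of both peaks was required. The cause of these changes was not tested. No difference that was recomputed for a named gene changed its direction under the settings tried. No paired analysis was possible because the labels carry no replicate numbers. The numbers used here follow the order of the samples and pair nothing. With 2 libraries per genotype, differences under 2-fold are often missed, and 1 ChIP-seq library per genotype gives no replicate check.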
